A study of Mus musculus with 24 samples.

Results

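The comparison described here set MIN6 cells expressing EIF2A against MIN6 cells expressing green fluorescent protein (GFP) after 1 h of thapsigargin. It rests on 6 of the 24 libraries of the study, replicates 2, 3 and 4 of each construct. MIN6 is a mouse insulinoma line with beta cell features. The cells carried a plasmid for EIF2A fused to GFP or a plasmid for GFP alone, and both groups received 1 μM thapsigargin. The same constructs with DMSO vehicle (0 h) and after 3 h of thapsigargin, 3 libraries each, show which part of a difference was present without the drug. The labels give neither the species of the EIF2A insert nor whether the plasmid was carried transiently or stably, and there was no vehicle library matched to 1 h. Replicate 1 was left out because its libraries carry Eif2a at levels opposite to their labels: 361 CPM (gene counts scaled to library size) in the library labelled GFP at 1 h and 96.9 CPM in the one labelled EIF2A. The labels do not say that replicates came from separate cultures, so p-values measure only the spread between these libraries.

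Thapsigargin blocks SERCA, the pump that loads calcium into the endoplasmic reticulum (ER), and unfolded proteins then accumulate there. The ER kinase PERK phosphorylates eIF2, the complex that delivers initiator tRNA to ribosomes, which lowers translation in general and favours translation of the transcription factor ATF4 and the induction of its targets, the integrated stress response (ISR). In parallel, IRE1 splices Xbp1 mRNA and cuts a set of other mRNAs, and ATF6 raises ER chaperones. EIF2A is a separate initiation factor that can also deliver initiator tRNA and that must not be confused with the alpha subunit of eIF2. Insulin-producing cells carry a heavy secretory load and depend on these pathways.

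At 1 h the depth was 18099054 to 19572587 gene counts per GFP library and 14057183 to 16637281 per EIF2A library, and at 0 h it was 18390091 to 22222701 and 10522758 to 14798547. Ins1 and Ins2 together held 3.95 to 4.43% of the gene counts with GFP at 1 h and 8.21 to 8.64% with EIF2A, whereas the acinar markers Prss1 and Amy2a5 had 0 counts in the 6 libraries of 1 h. The glucagon gene Gcg and the keratin gene Krt7 were also present, so the beta cell label holds with some transcripts of other islet and duct programmes. At 1 h replicate 4 stood apart from replicates 2 and 3 in both constructs: the chi-square per degree of freedom between libraries was 10.65 and 8.41 for pairs with replicate 4 and 1.89 for replicates 2 and 3 with EIF2A, and 4.88 and 4.18 against 1.86 with GFP.

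Eif2a itself, the gene of the construct, measured 92.2, 90.6 and 94.7 CPM in the GFP libraries at 1 h and 202, 190 and 179 CPM in the EIF2A libraries. The difference was 1.04 ± 0.07 (SE) on the log2 scale. Since replicate 1 was left out for its Eif2a level, this value is a description; with all 24 libraries as labelled it was 0.06 ± 0.51. At 0 h the values were 79.3, 78.1 and 79.0 CPM against 142, 143 and 135 CPM, a log2 difference of 0.83. The change of that difference from 0 h to 1 h was 0.21 ± 0.10 with an adjusted p of 0.391 in edgeR's quasi-likelihood test. Eif2a lies on chromosome 3 from 58525821 to 58557501 (GRCm38), where Serp1 overlaps it on the opposite strand.

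Most of the difference between the constructs at 1 h was present before thapsigargin. Of 13731 genes tested, 9609 were called at 1 h at an adjusted p under 0.05 (70% of the genes tested), 4489 higher with EIF2A (32.7%) and 5120 lower (37.3%). At 0 h 8904 genes were called (64.8%), 4385 higher (31.9%) and 4519 lower (32.9%). Of the 1 h calls, 7906 (82.3%) were also called at 0 h in the same direction and 22 in the opposite one. Across genes, the 0 h and 1 h differences, which share no library, had a Pearson r of 0.924, and of 0.965 over the 10875 genes with at least 5 CPM, with a slope of 1.009. Genes are not independent replicates, so this is a description. The plot of the 0 h against the 1 h difference shows the genes along the diagonal.

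**Figure D1:**
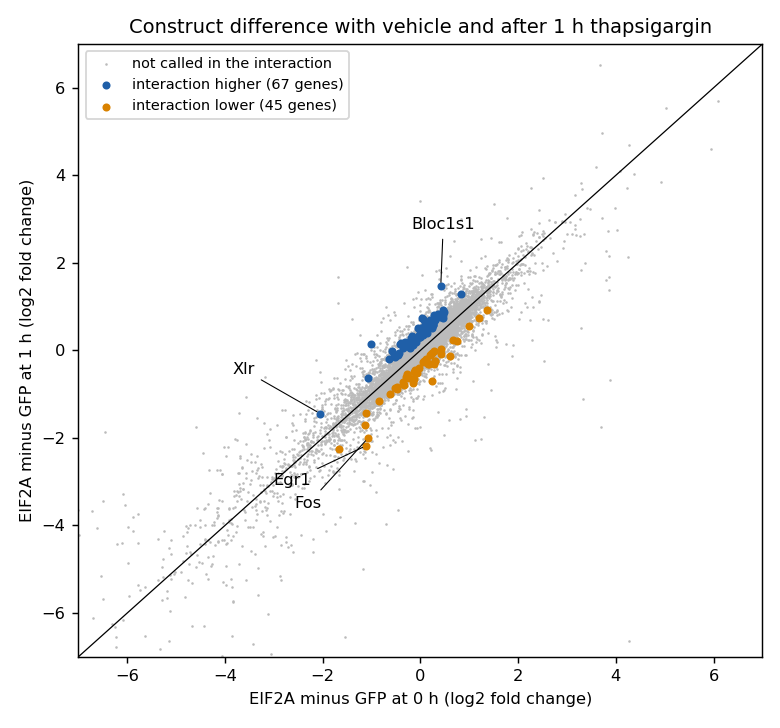
Log2 difference between EIF2A and GFP at 1 h (vertical) against that at 0 h (horizontal), one point per gene, with the line of equality; 17 genes lie outside the axes. The 67 genes with a higher and the 45 with a lower interaction lie off the line but close to it, and most other genes lie along it (r = 0.924).

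Genes with large differences at 1 h had them at 0 h and 3 h as well. The chloride channel gene Ano1 measured 0.38, 0.15 and 0.40 CPM with GFP and 17.5, 17.1 and 15.1 CPM with EIF2A at 1 h. Its log2 difference of 5.70 ± 0.19 compared with 6.10 at 0 h and 5.44 at 3 h. Sct, which encodes the hormone secretin, had 55.6, 61.9 and 55.0 CPM with GFP against 422, 432 and 516 CPM with EIF2A. The groups were far apart, at a log2 difference of 2.99 ± 0.09 at 1 h and 2.64 at 0 h. Spp1, the gene of the secreted phosphoprotein osteopontin, stood at 705, 705 and 697 CPM with GFP and 35.0, 32.6 and 36.6 CPM with EIF2A, a log2 difference of -4.34 ± 0.08 that was also -4.34 at 0 h. The amino acid transporter gene Slc38a1 (-5.48 at 1 h, -5.75 at 0 h), the transcription factor gene Maf (-5.07 and -4.91) and the splicing regulator gene Rbfox1 (-5.21 and -5.10) behaved alike. Aldh1a3, a retinaldehyde dehydrogenase linked to loss of beta cell identity, had 22.1, 23.5 and 21.7 CPM with GFP at 1 h. It had 0.35, 0.23 and 0.13 CPM with EIF2A, 10 counts in all, and 0 counts in the 3 EIF2A libraries of 0 h. Among the 2004 genes called with at least a 2-fold difference at 1 h (735 higher, 5.35%, and 1269 lower, 9.24%), 1849 (92.3%) were called in the same direction at 0 h, 1775 (88.6%) at both 0 h and 3 h, where 67.6% of all genes were called, and 9 were called in the test of a change from 0 h.

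Beta cell products followed the same rule. Ins1 measured 6805, 7125 and 6819 CPM with GFP and 25022, 25597 and 29118 CPM with EIF2A at 1 h, a log2 difference of 1.94 ± 0.08 against 1.48 at 0 h. Ins2, the other insulin gene, was 0.90 ± 0.07 higher at 1 h and 0.57 higher at 0 h, and the glucose transporter gene Slc2a2 1.65 ± 0.07 and 1.82. The change of the Ins1 difference was 0.46 ± 0.11 with an adjusted p of 0.0697, and that of Ins2 0.32 ± 0.10 with 0.148. Ins1 passed in 7 and Ins2 in 5 of 22 alternatives, all among the 10 that left out no single library. DESeq2's Wald test was among those passed (0.00711 and 0.0352). Over the 22 the adjusted p ran from 5.12e-05 and 0.0094 to 1. Iapp, the gene of the co-secreted amylin, was 0.17 lower on the log2 scale at 1 h (-0.17 ± 0.05) and -0.24 at 0 h. Ucn3, a marker of mature beta cells, stayed near 1 CPM or below with EIF2A (0.56, 1.15 and 0.74 CPM) against 16.7, 16.4 and 16.0 CPM with GFP. None of the 38 beta cell identity genes and none of the 35 granule and exocytosis genes was called in the change from 0 h to 1 h.

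What 1 h added was measured as the interaction, the log2 response to thapsigargin with EIF2A minus that with GFP, which equals the 1 h difference minus the 0 h difference. The test called 112 genes (0.816% of those tested), 67 with a higher interaction (0.488%) and 45 with a lower one (0.328%). The absolute interaction had a median of 0.13 over all genes, compared with 0.41 for the 1 h difference and 0.36 for the 0 h difference. At an unadjusted p under 0.05 there were 1740 genes (12.7%). In 80 of the 112 called genes the constructs differed more at 1 h than at 0 h, and in 32 they differed less; over all genes 60.5% differed more at 1 h. Of the 1681 genes called at 1 h but not at 0 h, 30 were called in the interaction, so in this fit a call at 1 h alone was seldom a call of change.

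Leaving out any 1 of the 12 libraries of 0 h and 1 h lowered the count to between 25 and 72 genes. All 112 kept their sign in each of these 12 fits, 22 were called in each of them, 13 higher and 9 lower, and 24 in none. The kept sign says little, since these fits share most libraries with the fit that chose the genes. The fit of all 24 libraries with replicate 1 as labelled called 0 genes. Of other settings, no filter on low counts gave 74 genes, DESeq2's Wald test 303 and the replicate number as a block 638. The responses of 20 of the 22 genes are drawn in the plot of both constructs' responses.

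**Figure D2:**
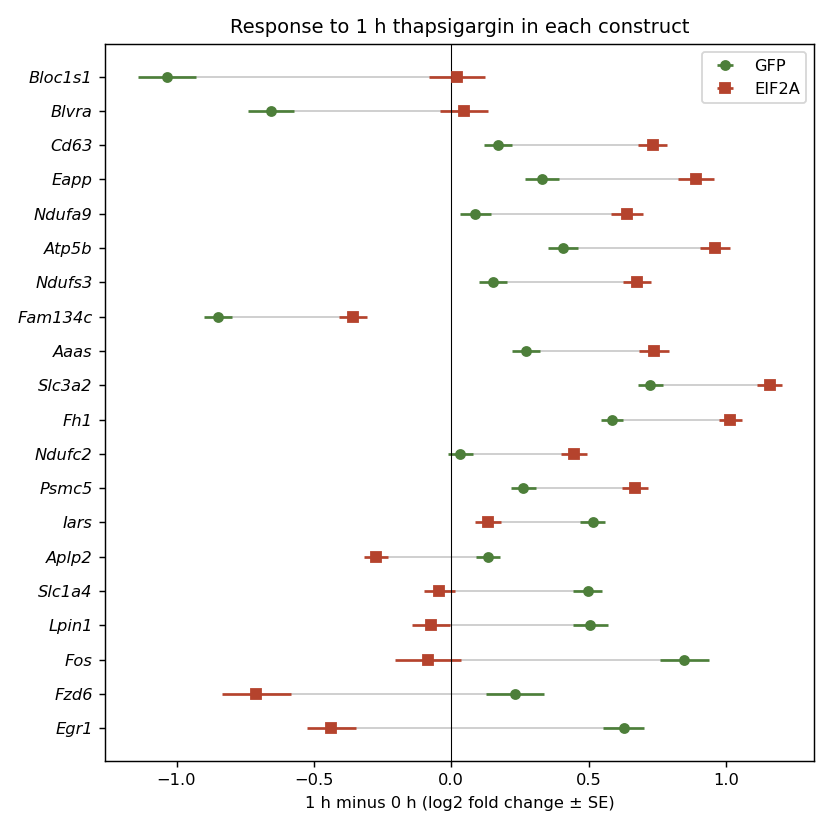
Response to 1 h of thapsigargin (1 h minus 0 h, log2 fold change ± SE from the fit, 3 libraries per group) in GFP (circles) and EIF2A (squares) cells for 20 of the 22 genes called in the interaction whichever of the 12 libraries was left out. Bloc1s1 fell in GFP cells by 1.03 and stood at 0.02 in EIF2A cells, and Egr1 rose by 0.63 and fell by 0.44.

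Bloc1s1 had the highest interaction among called genes with at least 5 CPM. It encodes a subunit of a complex for the biogenesis of lysosome-related organelles and is a textbook substrate of IRE1-dependent mRNA decay. The GFP libraries held 27.2, 30.9 and 28.5 CPM at 0 h and 14.6, 13.0 and 14.7 CPM at 1 h. With EIF2A the values were 37.0, 39.5 and 39.3 CPM at 0 h and 36.3, 35.4 and 45.4 CPM at 1 h. So Bloc1s1 fell in GFP cells, by 1.03 on the log2 scale, while its change of 0.02 in EIF2A cells did not pass the test (adjusted p 0.891). The interaction was 1.06 ± 0.15 (edgeR, adjusted p 0.00184). At 3 h the GFP libraries were at 9.56 to 10.9 CPM and the EIF2A libraries at 27.1 to 34.9 CPM. In replicate 1 the interaction was -0.31. Bloc1s1 overlaps Rdh5 on the same strand, so reads in the shared part could be counted for either or neither.

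The letters CTGCAG, the core of the sequence that IRE1 is known to cut, occur 4 times in the 550 bases of its transcript (GENCODE M21, chromosome 10, minus strand). They are shown because the gene leads the interaction; capitals mark the 6 letters, and the names give their position in the transcript.
Bloc1s1 position 39, before the coding sequence: atagtccagttcCTGCAGccttagggaggg
Bloc1s1 position 144, coding, exon 1: gaacgcaaggagCTGCAGgagaagaggagg
Bloc1s1 position 175, coding, exon 2: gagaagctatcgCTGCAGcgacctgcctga
Bloc1s1 position 447, coding, exon 4: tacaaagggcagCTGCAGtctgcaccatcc
At least 1 match was present in 40.6% of 539 coding transcripts within 100 bases of this length, and at least 4 matches in 4 of them (0.742%). The motif was chosen after the values were seen, and the cutoff of 4 is the number found in Bloc1s1 itself. A match, like its share, is therefore only a description of the letters. Of the 6 genes listed as IRE1 decay substrates, 3 passed the filter on low counts and Bloc1s1 alone was called in the interaction. The spliced form of Xbp1 cannot be read from gene counts; Xbp1 in total rose in both constructs (0.42 with GFP, 0.35 with EIF2A), with an interaction of -0.07 and an adjusted p of 0.762.

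**Figure D3:**
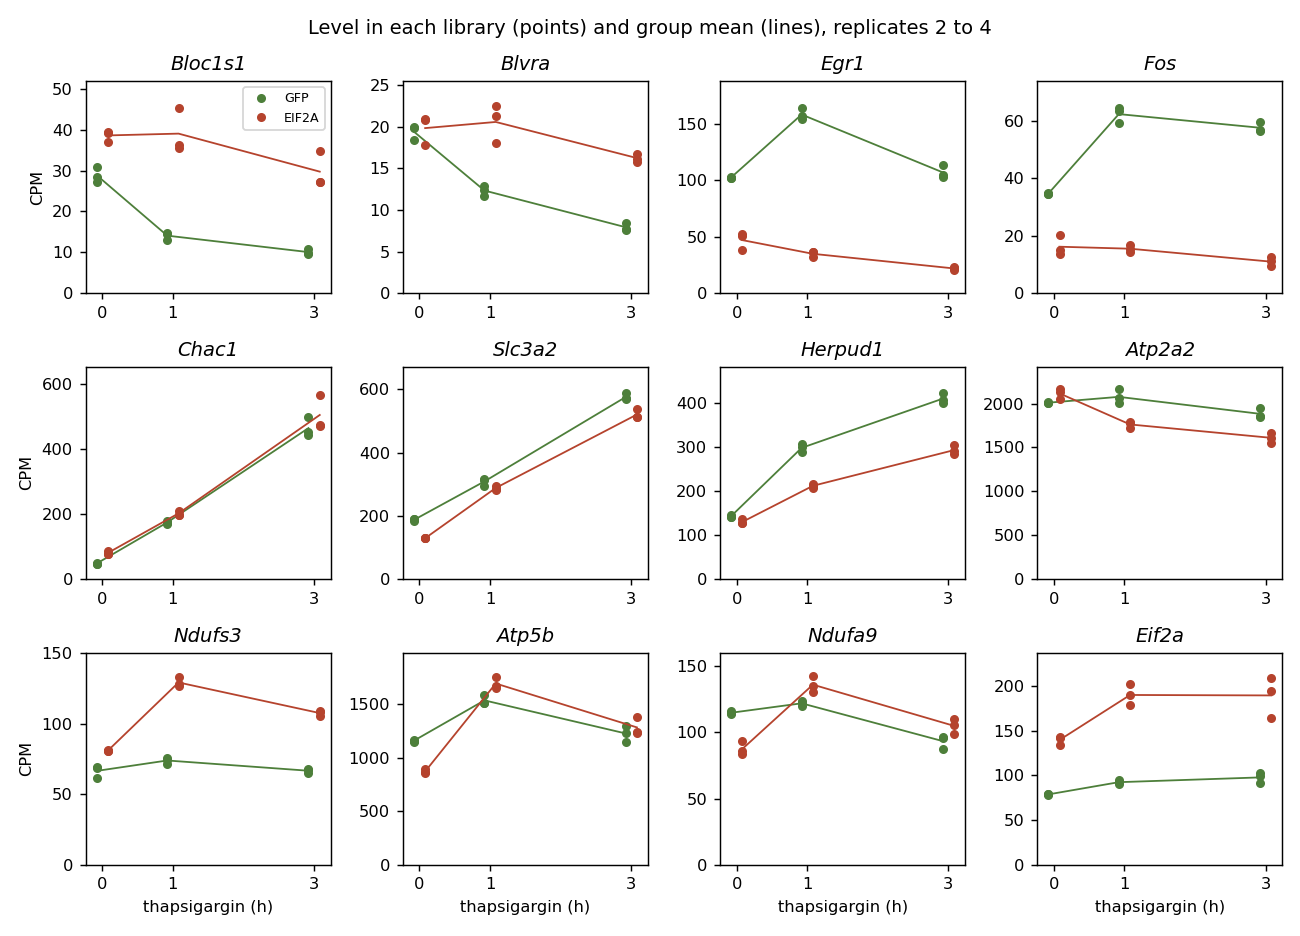
CPM (linear axis from 0) of 12 genes in every library of replicates 2 to 4, by hours of thapsigargin (0 is vehicle); points are libraries and lines join the means of 3. Fos was at 59.2 to 64.5 CPM in the GFP libraries at 1 h and at 14.4 to 16.9 CPM in the EIF2A libraries.

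Among called genes the lowest interaction was that of Egr1, and Fos, another immediate early transcription factor, was among the 3 lowest. Egr1, a zinc finger factor induced within minutes by calcium and growth signals, measured 102, 102 and 102 CPM with GFP at 0 h and 156, 154 and 163 CPM at 1 h. EIF2A libraries held 50.8, 51.9 and 38.2 CPM at 0 h and 36.3, 36.4 and 31.9 CPM at 1 h. It thus rose by 0.63 with GFP and fell by 0.44 with EIF2A, an interaction of -1.06 ± 0.12 (edgeR, adjusted p 2.83e-04). Fos, the AP-1 subunit, went from 34.5, 35.1 and 34.5 CPM to 64.5, 63.6 and 59.2 CPM with GFP. With EIF2A it was at 20.2, 14.9 and 13.6 CPM at 0 h and at 16.9, 14.4 and 15.3 CPM at 1 h, so the EIF2A groups overlapped. Its interaction was -0.93 ± 0.15 (adjusted p 0.0046). In replicate 1, where the libraries labelled EIF2A had the lower Eif2a, the interaction was 1.03 for Egr1 and 0.60 for Fos.

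No other immediate early gene was called as lower, although Egr2 and Egr3, close relatives of Egr1 with low counts, had lower values. Egr2 was at 3.59, 2.93 and 4.03 CPM with GFP at 1 h and at 0.84, 0.69 and 0.60 CPM with EIF2A, and at or below 0.63 CPM in the 6 libraries of 0 h. Its response was 2.92 with GFP and 0.88 with EIF2A, an interaction of -2.05 ± 0.74 (adjusted p 0.229). Egr3 held 1.31, 1.52 and 1.71 CPM with GFP at 1 h and 0.42, 0.46 and 0.60 CPM with EIF2A, and its interaction was -2.19 ± 1.03 (adjusted p 0.387). Neither passed in any alternative that tested it. Over all genes, 39.4% were called in the GFP response (21.2% rose, 18.2% fell) and 42% in the EIF2A response (20.2% rose, 21.8% fell). Of the 53 tested members, 45 rose with GFP and 37 with EIF2A, and all 37 were among the 45. In the interaction Egr1 and Fos were lower and Dusp1 was higher (5 lower and 4 higher with length and GC trends removed, 5 and 3 with replicates 2 and 3 only, 4 and 4 with the libraries of 0 h and 1 h alone, 2 and 4 with DESeq2's Wald test), while the list's median was -0.09 against -0.03 for all genes. Dusp1, a phosphatase that switches off MAP kinases, rose by 0.33 with GFP and by 0.69 with EIF2A, an interaction of 0.36 ± 0.08 that was called in 1 of the 12 fits with a library left out. The nuclear receptor gene Nr4a1 rose from 83.2, 86.0 and 84.7 CPM to 510, 514 and 483 CPM with GFP. With EIF2A it rose from 26.6, 21.3 and 21.9 CPM to 181, 180 and 197 CPM, so the response was present from a lower level. Its interaction of 0.42 ± 0.12 had an adjusted p of 0.112. It passed in 5 of 22 alternatives, all among the 10 that left out no single library (adjusted p 0.0103 to 1 over the 22). At 1 h 41 of the 53 genes were lower with EIF2A and 8 higher, with 33 lower and 8 higher at 0 h; Dusp6, another MAP kinase phosphatase, was -2.60 at 1 h and -2.49 at 0 h.

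Upstream sequence of Fos is shown to place the letters TGACG, the core of the cyclic AMP response element bound by CREB family factors. It is from RefSeq on GRCm38.p6, 250 bases before the start, chr12:85473640-85473889, plus strand, with TGACG in capitals at 129 and 66 bases before the start.
Fos: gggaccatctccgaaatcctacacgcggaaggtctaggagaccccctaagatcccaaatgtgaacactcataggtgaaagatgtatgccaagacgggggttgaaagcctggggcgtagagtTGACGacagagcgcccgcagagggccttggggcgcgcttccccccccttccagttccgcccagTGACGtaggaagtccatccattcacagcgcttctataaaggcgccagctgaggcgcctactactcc
TGACG on either strand occurs in 17.8% of 32851 such windows, the full TGACGTCA in 1.55% and the AP-1 site TGACTCA in 4.46%; the Fos window holds neither of the last.

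Of the ISR genes, 14 rose in both constructs at 1 h. On the log2 scale Chac1 and Trib3 rose less with EIF2A, from a higher starting level. Of 43 listed targets of ATF4 and CHOP, 23 rose with GFP and 14 with EIF2A, all 14 among the 23. Over the 23, which were picked by their rise with GFP, the median response was 0.68 with GFP and 0.45 with EIF2A. That choice favours the GFP value, and over all 43 the medians were 0.24 with GFP and 0.16 with EIF2A. Chac1, a glutathione-degrading enzyme and an early ATF4 target, went from 47.7, 46.9 and 48.7 CPM to 170, 180 and 173 CPM with GFP. With EIF2A it went from 76.9, 77.8 and 86.8 CPM to 198, 199 and 210 CPM. The responses were 1.87 and 1.33, the interaction -0.54 ± 0.10 (adjusted p 0.0172), and the construct difference 0.75 at 0 h and 0.21 at 1 h. Trib3, a pseudokinase that feeds back on ATF4, had a difference of 1.20 at 0 h and 0.73 at 1 h, with an interaction of -0.48 ± 0.10 (adjusted p 0.0344). Its mean went from 23.4 to 58.8 CPM with GFP and from 54.0 to 97.4 CPM with EIF2A, so in CPM the rise was not smaller with EIF2A. For the mitochondrial folate enzyme gene Mthfd2, GFP libraries rose from 214, 218 and 218 CPM to 274, 279 and 266 CPM, and EIF2A libraries, at 253, 256 and 252 CPM and then 265, 252 and 253 CPM, were not called.

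In the interaction 4 ISR members were lower (Chac1, Trib3, Mthfd2 and Ndrg1) and 1 was higher, at a list median of -0.11 against -0.03 for all genes. The member that was higher, Slc3a2, encodes the heavy chain of amino acid exchangers. It rose from 183, 189 and 189 CPM to 315, 317 and 295 CPM with GFP and from 128, 129 and 129 CPM to 286, 283 and 296 CPM with EIF2A. The groups drew together, from a log2 difference of -0.53 at 0 h to -0.10 at 1 h, with an interaction of 0.43 ± 0.06 (adjusted p 0.00208). The count of lower members was 0 without GFP replicate 2 or 3 of 0 h or GFP replicate 3 of 1 h, and 1 to 3 without any other of the 12 libraries. Chac1 was called in 9 of these 12 fits, Mthfd2 in 5 and Trib3 in 1, and Slc3a2 in all 12.

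The interactions of the transcription factors Atf4, Atf3 and Ddit3 were below 0 and not called. Atf4 rose by 0.70 with GFP and by 0.46 with EIF2A, an interaction of -0.25 ± 0.07 with an adjusted p of 0.115. For Atf3, a stress-induced repressor, the values were 1.93, 1.56 and -0.37 ± 0.10 (adjusted p 0.115), and for Ddit3, which encodes CHOP, 1.41, 1.11 and -0.30 ± 0.10 (0.201). Atf4 passed in 4 of 22 alternatives, Atf3 in 2 and Ddit3 in 1, each as lower. All of these were among the 10 that left out no single library. The adjusted p over the 22 reached down to 4.02e-04, 0.0198 and 7.07e-05 and up to 1. Ppp1r15a, the gene of the phosphatase subunit GADD34 that reverses eIF2 phosphorylation, went from 25.4, 25.4 and 24.3 CPM to 41.7, 41.0 and 40.2 CPM with GFP. It went from 19.8, 22.9 and 23.6 CPM to 37.5, 40.2 and 38.3 CPM with EIF2A, and at 1 h these groups stood at a log2 difference of -0.08 ± 0.08. Among 21 tRNA synthetase genes, which supply charged tRNA and are ATF4 targets in part, 19 rose with GFP and 20 with EIF2A. Iars was the single one called: it rose by 0.51 with GFP and by 0.14 with EIF2A (interaction -0.38 ± 0.07, adjusted p 0.00959). Outside the list, the neutral amino acid transporter gene Slc1a4 rose from 36.9, 35.9 and 40.5 CPM to 54.1, 54.7 and 50.8 CPM with GFP and stood at 46.5, 45.2 and 47.7 CPM and then 45.9, 45.0 and 44.4 CPM with EIF2A (interaction -0.54 ± 0.08, adjusted p 0.00208).

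ER chaperones and the degradation machinery gave 1 call each in the interaction (2.9% and 3.6% of their tested genes, against 0.816% of all genes). Of 34 chaperone and folding genes, 19 rose with GFP and 20 with EIF2A; Fkbp2, a prolyl isomerase of the ER, was the only one called in the interaction (0.38 ± 0.07, called in 5 of the 12 fits). Hspa5, the chaperone BiP, rose by 0.54 and by 0.32, an interaction of -0.22 ± 0.07 with an adjusted p of 0.177. In the ER-associated degradation list of 28 genes, Herpud1 alone was called. It rose from 141, 145 and 141 CPM to 299, 306 and 288 CPM with GFP and from 127, 136 and 126 CPM to 212, 217 and 206 CPM with EIF2A. The 1 h groups were apart by -0.49 ± 0.05 on the log2 scale, and the interaction was -0.36 ± 0.07 (adjusted p 0.0192, called in 5 of the 12 fits).

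Upstream sequences of Chac1, Herpud1 and Trib3, chosen from the ER stress genes with lower interactions, are shown to compare the letters TGATGNAA, the core of the composite element bound by ATF4 and CHOP, and TGACG. They are from RefSeq on GRCm38.p6, the 250 bases before each start, with matches on either strand in capitals: Chac1 at chr2:119350992-119351241 plus, Herpud1 at chr8:94386179-94386428 plus, Trib3 at chr2:152344061-152344310 minus.
Chac1: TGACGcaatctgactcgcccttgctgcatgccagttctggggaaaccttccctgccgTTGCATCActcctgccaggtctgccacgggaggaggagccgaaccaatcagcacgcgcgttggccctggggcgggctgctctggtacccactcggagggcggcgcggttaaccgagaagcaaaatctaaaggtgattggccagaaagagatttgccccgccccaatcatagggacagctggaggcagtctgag
Herpud1: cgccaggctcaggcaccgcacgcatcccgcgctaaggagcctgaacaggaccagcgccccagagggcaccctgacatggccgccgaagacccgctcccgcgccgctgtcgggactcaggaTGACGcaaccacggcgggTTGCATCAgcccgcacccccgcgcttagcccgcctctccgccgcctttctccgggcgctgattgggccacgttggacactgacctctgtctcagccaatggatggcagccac
Trib3: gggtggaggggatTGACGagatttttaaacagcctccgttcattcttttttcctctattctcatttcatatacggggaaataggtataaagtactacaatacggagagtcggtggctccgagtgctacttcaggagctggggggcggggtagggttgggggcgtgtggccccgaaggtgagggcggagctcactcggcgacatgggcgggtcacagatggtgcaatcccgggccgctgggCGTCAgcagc
TGATGNAA matched at 193 bases before the Chac1 start and 112 before that of Herpud1, on the minus strand in both, and not in the Trib3 window. It occurs in 3.45% of the 32851 windows. TGACG lay at 250 in Chac1, at 130 in Herpud1 and at 237 and 10 in Trib3. The Mthfd2 window held neither, and for Ndrg1 no window was obtained. The window of Slc3a2, whose interaction was higher, held none of the motifs searched, which says only that these letters are absent from those 250 bases.

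Thapsigargin's target was itself among the called genes. Atp2a2, which encodes SERCA2, had 2059, 2002 and 2168 CPM with GFP at 1 h, and 1786, 1779 and 1719 CPM with EIF2A. At 0 h the constructs were close, 2007, 2008 and 2013 CPM with GFP and 2165, 2053 and 2129 CPM with EIF2A. It fell with EIF2A by 0.26 and was not called with GFP (0.05), an interaction of -0.31 ± 0.07 (adjusted p 0.0312). It was called in 1 of the 12 fits with a library left out. The other 35 tested genes of calcium handling were not called, and the list's median was -0.10 against -0.03 for all genes.

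Lpin1, a phosphatidate phosphatase of lipid synthesis, rose by 0.51 with GFP and stood at -0.07 with EIF2A (interaction -0.58 ± 0.10, adjusted p 0.00563, called in all 12 fits).

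Every called gene of the list of oxidative phosphorylation (OXPHOS) had a higher interaction. Of 82 nuclear-encoded members, 12 had a higher interaction and 0 a lower one, and the median was 0.17 against -0.03 for all genes. With GFP 9 rose and 44 fell, and with EIF2A 20 rose and 21 fell. By complex, 9 of 36 genes of complex I, 1 of 9 of complex III and 2 of 17 of complex V, the ATP synthase, were called, and none of 4 of complex II, 15 of complex IV or the 1 cytochrome c gene. Ndufs3, a core subunit of complex I, measured 68.8, 69.5 and 61.2 CPM with GFP at 0 h and 74.5, 75.9 and 71.2 CPM at 1 h. With EIF2A it rose from 80.8, 81.5 and 80.5 CPM to 133, 126 and 128 CPM, an interaction of 0.52 ± 0.07 (adjusted p 0.00184). For Atp5b, the catalytic beta subunit of the ATP synthase, EIF2A libraries rose from 863, 859 and 892 CPM to 1673, 1649 and 1757 CPM and overtook the GFP libraries, which rose from 1150, 1160 and 1164 CPM to 1506, 1511 and 1588 CPM. Its interaction was 0.55 ± 0.08 (adjusted p 0.00184), and that of the complex I subunit gene Ndufa9 was 0.55 ± 0.08 (adjusted p 0.00208). Without 1 library the list's count was 5 to 9 for each of the 12 libraries; Ndufs3, Ndufa9, Ndufc2 and Atp5b were called in all 12 fits.

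Other genes with a higher interaction were Fh1, Cd63 and Blvra. Fh1, the fumarase of the citric acid cycle, rose from 165, 163 and 164 CPM to 246, 245 and 247 CPM with GFP. With EIF2A it rose from 78.1, 79.4 and 76.7 CPM to 155, 157 and 161 CPM, an interaction of 0.43 ± 0.06 (adjusted p 0.00184). Cd63, a tetraspanin of late endosomes, drew level: 402, 402 and 376 CPM with GFP and 403, 399 and 367 CPM with EIF2A at 1 h, after a log2 difference of -0.57 at 0 h. Blvra, the biliverdin reductase gene, fell with GFP by 0.66 and stood at 0.05 with EIF2A, an interaction of 0.70 ± 0.12 (adjusted p 0.00959). Proteasome and mitochondrial ribosome subunits were looked up after the calls were seen, so their counts are descriptions: 6 of 37 and 3 of 77 were higher and 0 lower. The 81 cytosolic ribosomal protein genes gave 0 calls in the interaction, with a median of 0.12; 77 of them were higher with EIF2A at 1 h and 76 at 0 h.

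**Figure D4:**
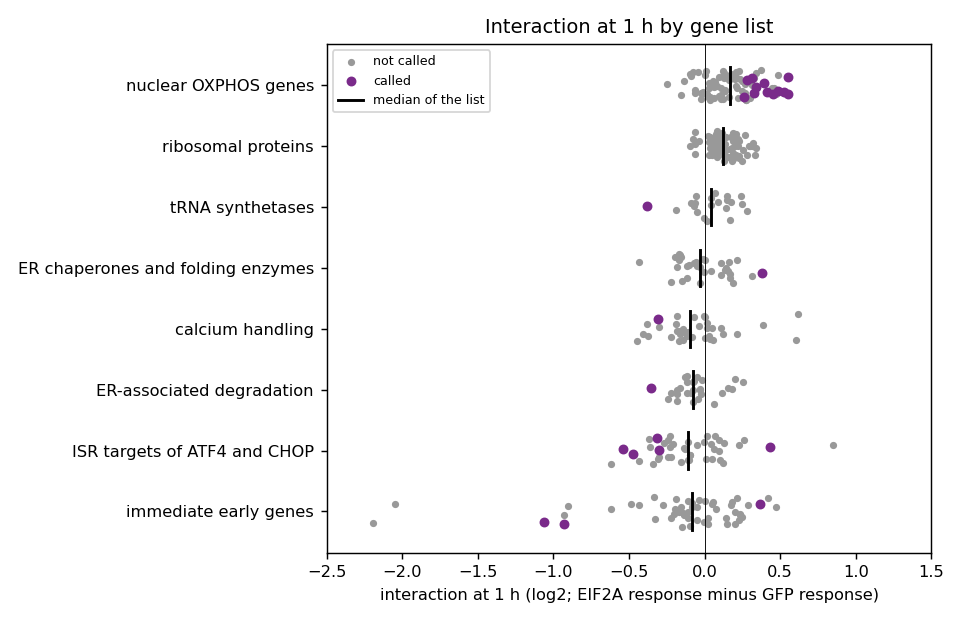
Interaction at 1 h (log2, EIF2A response minus GFP response) of each tested gene in 8 lists, with called genes in purple and the list median as a bar. The 12 called OXPHOS genes all lie to the right of 0, the called ISR genes on both sides; the points near -2 are Egr2 and Egr3, which were not called.

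Some adhesion genes fell in EIF2A cells, with a count that rests in part on 1 library. Of 30 tested genes of extracellular matrix and adhesion, 12 fell with EIF2A and 1 with GFP. Cdh1 and Cdh2, the epithelial and neural cadherins, were lower in the interaction (-0.34 ± 0.07 and -0.51 ± 0.11). EIF2A replicate 2 at 0 h held 23.99 CPM of summed mesenchymal markers (scaled by library totals, without TMM), all 6 with a count, against 2.56 and 3.99 CPM in the other EIF2A libraries of 0 h and 2.62 to 3.13 CPM at 1 h. Without that library 6 of the 30 genes fell with EIF2A and 0 were called in the interaction. The part of these markers in the result was not tested further. The interaction count was also 0 without EIF2A replicate 3 of 0 h or replicate 4 of 1 h.

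Genes called in the interaction differed in length. The median exonic length was 2640 bases for the 64 higher genes with an annotation and 5704 for the 43 lower ones, against 4391 for all. From the shortest to the longest of 5 equal groups of genes the median interaction went from 0.05 to -0.07, and the 1 h difference from 0.34 to -0.31, as the plot by length shows. With the length trend removed per library, 90 of the 112 genes stayed called, of 107 with a length, and the OXPHOS median was 0.13. The median 1 h difference of the OXPHOS list went from 0.46 to 0.19. Of its called genes, Ndufc2, Ndufa12 and Uqcrc2 were no longer called, though each was with length and GC trends removed together. The cause of the trend was not tested.

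The 1 h difference was also set against the mean of the other times. A test of the 1 h difference against the mean of 0 h and 3 h called 55 genes (0.401%), 19 of them also in the interaction. Such a call can rest on 3 h alone, without a change from 0 h. Sik1, a kinase induced by cyclic AMP and calcium, had 72.8, 72.6 and 65.5 CPM with GFP at 1 h and 31.4, 31.3 and 28.6 CPM with EIF2A. At 3 h the GFP libraries were at 55.5 to 63.5 CPM and the EIF2A libraries at 4.05 to 5.71 CPM, so that the log2 difference was -1.44, -1.21 and -3.63 at 0, 1 and 3 h. Nr4a1 (-1.85, -1.43 and -3.57) and Nr4a3 (-0.99, -0.52 and -2.44) had the same order. Cited2, a transcriptional coregulator, ran from -0.63 and -0.79 to 0.20. Txnip, a thioredoxin inhibitor induced by ER stress in beta cells, was 0.37, 0.11 and 0.58. None of these 5 genes was called in the interaction, while Egr1 and Fh1 were called in both tests, with a departure of -0.48 and 0.44 (adjusted p 0.041 and 1.04e-04).

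The left-out replicate 1 gave the opposite sign more often than not, at values that were mostly small. Of the 67 genes with a higher interaction, 48 were below 0 in replicate 1, and of the 45 with a lower one 33 were above 0; over all genes 7149 were above and 6577 below. The median there was -0.057 for the 67 genes and 0.085 for the 45, against 0.008 over all genes. There is 1 library per construct and time there, so no test was made.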

How the data were processed

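RNA of MIN6 cells was sequenced from 24 libraries (2 constructs, 3 times, 4 replicates; TruSeq stranded mRNA, per the labels' protocols). The deposited table holds whole-number read counts per gene; bcl2fastq, STAR and mm10 are named in the submitters' processing notes, while the counter, annotation and strand setting were not given in the sources used here. Lines that name no gene (2 lines, 11.5 to 18.4% of reads) were left out. In replicates 2 to 4 their share was 12.97 to 13.55% with GFP and 17.7 to 18.4% with EIF2A at 0 h. At 1 h it was 11.48 to 11.99% with GFP and 15.39 to 15.95% with EIF2A. The part of this in the construct differences was not tested. Members and gene lists were chosen with earlier results of these data known. Some results are not reported here.

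Genes were filtered with filterByExpr (minimum count 10, total 15), scaled by TMM and fitted with edgeR 4.0.16's quasi-likelihood test (R 4.3.3, limma 3.58.1) on 18 libraries with 1 mean per group (12 residual degrees of freedom), with Benjamini-Hochberg adjustment over all 13731 genes and a threshold of 0.05. SE is the log2 fold change over the root of F. CPM are of TMM-scaled libraries; 1 CPM at the lowest depth of 0 h and 1 h was 10.5 counts. Named genes were the 10 highest and 10 lowest of the 1 h difference and of the interaction among called genes of at least 5 CPM, up to 3 called members per list and test, and a set list of stress and beta cell genes; Trib3, Fh1, Egr2, Egr3, the departure genes (Sik1, Nr4a1, Nr4a3, Crem, Cited2, Egln3) and other genes called in all 12 fits were named after their values were seen. On simulated data for the interaction (13662 genes) 58 of 100 1.5-fold and 83 of 98 2-fold changes were recovered and 9 unchanged genes called. Alternatives were DESeq2 1.42.0, other scalings, no filter, a replicate block, other library sets, each library left out a trend on length for the interaction and, chosen after seeing the data, that trend for the 1 h difference, trends on length and GC content together, replicates 2 and 3 only, and the adhesion list without single libraries.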

Additional observations from a re-analysis of the deposited data

Results flagged for a closer look

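The response to 1 h of thapsigargin differed between the constructs, by the interaction test over all genes, for the genes below; each value is the log2 response with EIF2A minus that with GFP. Of stress and signalling genes these were Egr1 (-1.06), Fos (-0.93), Dusp1 (0.36), Chac1 (-0.54), Trib3 (-0.48), Mthfd2 (-0.32), Iars (-0.38), Slc1a4 (-0.54), Slc3a2 (0.43), Herpud1 (-0.36), Fkbp2 (0.38) and Bhlhe40 (-0.57). Of metabolic and mitochondrial genes they were Ndufs3 (0.52), Ndufa9 (0.55), Ndufc2 (0.41), Atp5b (0.55), Fh1 (0.43), Lpin1 (-0.58) and Blvra (0.70). Of genes of membranes, adhesion and transport they were Bloc1s1 (1.06), Cd63 (0.56), Atp2a2 (-0.31), Cdh1 (-0.34), Cdh2 (-0.51), Pcdhb14 (-0.74), Fzd6 (-0.94), Dpp10 (-0.57), Aplp2 (-0.41) and Plat (-0.60). Other genes were Pcyox1l (0.65), Eapp (0.56), Xlr (0.61), Hist1h2bc (-0.44), Eif3c (0.28), Ahsa1 (0.29), Fam134c (0.49), Aaas (0.47) and Psmc5 (0.41). Of the genes listed here, 20 were called in each of the 12 fits with a library left out. Ahsa1 was called in 0 of them, and Bhlhe40, Plat, Xlr, Atp2a2, Trib3, Dusp1 and Eif3c in 1 each. Bhlhe40, Dpp10 and Fzd6 fell with EIF2A by 0.59, 0.38 and 0.71 while GFP cells stood at -0.02, 0.19 and 0.23. Their interactions were called in 1, 3 and 12 of the 12 fits.

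In the replicate that the comparisons leave out, Eif2a measured 361 CPM in the library labelled GFP at 1 h, above the 90.6 to 94.7 CPM of the GFP libraries of replicates 2 to 4.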

How the results depend on the processing

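With all 24 libraries as labelled, calls numbered 141 for the construct difference at 1 h, 3 at 0 h and 0 at 3 h, 0 for the interaction and 0 for the 1 h departure from the mean of 0 h and 3 h; 1125 and 1444 genes were called in the GFP and EIF2A responses. The interaction count of 112 became 74 without the filter on low counts, 303 with DESeq2's Wald test, 348 with the 12 libraries of 0 h and 1 h alone, 472 with length and GC trends removed and 615 with replicates 2 and 3 only, and 25 to 72 with each library left out. The departure count of 55 became 168 with DESeq2's Wald test, and 16 to 402 with each library left out, the highest without EIF2A replicate 4 of 3 h. With the replicate number as a block, 638 genes were called in the interaction (5 immediate early genes lower and 4 higher) and 529 in the departure. The 638 genes included all 112 of the main fit, which took no account of the numbers. The median correlation of deviations was 0.206 between same-numbered libraries (lowest -0.079) and -0.092 between libraries of other numbers. It was 0.03, 0.309 and 0.412 for the 1 h pairs, and 13 of 18 libraries correlated best with their own number. Signs turned for the 1 h difference of Pdx1 (-0.01, length and GC trend removed), Chac1 (-0.083 with the length trend removed, -0.189 with both), Ndufc2 (-0.493 and -0.398) and Ndufa9 (-0.057, length), and for the interaction of Fos (0.041, all 24 libraries). The cause was not tested. Scaling by library totals moved the median 1 h difference of all genes to -0.175 and that at 0 h to -0.12. Depth limits genes near 1 CPM, such as Ano1 with GFP and Aldh1a3 with EIF2A.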

Other observations

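Single calls came from lists that were otherwise not called. Eif3c, a subunit of the initiation factor that bridges ribosome and mRNA, rose by 0.39 with GFP and by 0.67 with EIF2A. Ahsa1, the activator of the chaperone HSP90, measured 144, 149 and 146 CPM with GFP at 1 h and 152, 154 and 155 CPM with EIF2A, where it rose by 0.27. Hist1h2bc, a histone gene whose transcripts also occur with poly(A) tails, went from 109, 118 and 110 CPM to 161, 166 and 141 CPM with GFP and stood at 298, 294 and 272 CPM and then 302, 290 and 290 CPM with EIF2A. Hist1h2bc was called in 6 of the 12 fits with a library left out, Eif3c in 1 and Ahsa1 in 0. The lists of apoptosis and BCL2 family genes (29 tested), p53 targets (20) and NF-kB targets (17) gave 0 calls in the interaction by edgeR, with medians of -0.03, -0.06 and 0.03.

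The test of 1 h against the mean of 0 h and 3 h also called Egln3 and Crem, neither of which was called in the interaction. Egln3, an oxygen-sensing prolyl hydroxylase, fell in both constructs at 1 h (by 1.07 and 1.64 on the log2 scale), with differences of -0.13, -0.70 and 0.52 at 0, 1 and 3 h. Crem, a regulator of cyclic AMP response genes, was at 59.6, 53.4 and 51.7 CPM with EIF2A at 1 h and at 27.8, 27.2 and 23.4 CPM at 3 h, while GFP libraries held 50.6, 51.2 and 44.2 CPM and then 58.3, 58.2 and 54.8 CPM.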
